A study of Rattus norvegicus with 6 samples.

Results

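The Wnt ligands, their receptors and their secreted antagonists were examined in neonatal rat ovaries after a systemic immune challenge. Members were genes whose symbol begins with Wnt, Fzd, Sfrp, Dkk or Rspo followed by a number, together with Lrp5, Lrp6, Ctnnb1, Axin2, Lef1, Wif1, Frzb and Porcn, and each gene was represented by its brightest probe. The RefSeq table holds 49 genes that meet this description, of which 42 had a probe that could be matched by accession. These 42 genes were drawn from 26903 gene names on the array and 49 of its 30367 probes. They were 17 Wnt ligands, the acyltransferase Porcn, 3 R-spondins, 8 Frizzled receptors, 2 co-receptors, 8 secreted antagonists and 3 intracellular genes. Fzd10, Fzd7, Rspo4, Sfrp1, Wif1, Wnt2 and Wnt3a had no matched probe and were not analysed here.

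Female Wistar pups received intraperitoneal lipopolysaccharide (LPS) of Salmonella, a bacterial endotoxin that activates innate immunity, at 0.05 mg/kg, or the same volume of saline, on PND 3 and again on PND 5. Whole ovaries were taken on PND 7, and total RNA was hybridised to 6 single-colour Agilent arrays, 3 of LPS-treated and 3 of saline-treated ovaries. Per the study's methods whole litters were assigned to a treatment, and the replicates were made from the ovaries of several animals in each group. These animals came from fewer litters than there were arrays in a group, so litter and treatment cannot be told apart. The animals or litters behind each array were not given in the sources used here. The p-values therefore measure only the spread between these arrays, which do not stand for separate litters. Such arrays measure RNA of the whole organ, in which fewer cells of a type and less RNA per cell cannot be told apart.

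Wnt proteins are secreted lipid-modified signals. Porcupine, encoded by Porcn, attaches the lipid, and the ligand then binds a Frizzled receptor together with the co-receptor Lrp5 or Lrp6, which spares β-catenin (Ctnnb1) from degradation and lets it act with Tcf and Lef factors on target genes such as Axin2. R-spondins amplify this signal by keeping Frizzled receptors at the cell surface, Sfrp proteins and Frzb bind Wnt ligands outside the cell, and Dkk proteins block the co-receptors. In the developing ovary Rspo1 and Wnt4 act through β-catenin to direct the female fate of the gonad, and Wnt7a patterns the Müllerian duct that becomes the oviduct and uterus.

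Signal is given on a log2 scale after subtracting the 75th percentile of each array, so that a value of 0 is the level of a probe at that percentile. The arrays shared 1 slide and 1 scan, with LPS 2 and LPS 3 in row 1 of the slide and LPS 1 and all saline arrays in row 2. Over single spots their 75th percentile lay between 2823.87 and 6753.8 intensity units, and between 66.3% and 76.0% of spots were well above background. The percentile that was subtracted was taken over probes, after averaging their spots, and differs from these values. Ovarian markers were present, with 5 of 6 granulosa and 8 of 8 oocyte markers above background on every array. Saline 2 and saline 3 held adrenal transcripts besides the ovarian ones. The summed signal of 6 adrenal cortex markers was 163 and 218 times the 75th percentile on these arrays, against 1.24 on saline 1 and 0.742 to 1.55 on the LPS arrays. For 7 adrenal medulla markers it was 79.9 and 52.4, against 5.13 and 2.53 to 4.85, and 6 of the 13 adrenal markers, among them Chga, Chgb, Mc2r and Akr1b7, were well above background on saline 2 and saline 3 alone. LPS 1 and saline 1 stood apart in another way, with the highest sum of 8 oviduct and surface epithelium markers, 73.2 and 72.2, against 46.2 and 39.8 on LPS 2 and LPS 3 and 28.7 and 37.5 on saline 2 and saline 3. The granulosa sum was lowest on LPS 1, at 18.0, and ranged from 33.3 to 67.4 on the other arrays.

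Most of the pathway was measurable in the neonatal ovary. Of the 42 members, 30 exceeded background clearly on each of the 6 arrays and 5 did so on none. At the study's criterion, a 2-fold difference with an unadjusted p under 0.05, no member was higher on the LPS arrays, where 0.517% of all genes were, and 1 was lower, the antagonist Frzb, where 1.00% of all genes were. With limma no member had an adjusted p under 0.05, against 0% of all genes. At an unadjusted p under 0.05 and any size (limma), 5 members passed, 11.9% of them, against 15.7% of all genes. Of these, Fzd5 alone was above background on every array, Frzb was so on some, and Wnt8b, Fzd4 and Dkk2 on none. Analysis of variance of the same values gave 4, and the share of all genes is not given for it. The study names this test for its data in general and names none for the arrays. With the replicate number as a block 8 passed, 4 of them above background on every array, against 19.7% of all genes. The 30 members above background throughout all differed by less than 2-fold, from -0.46 to 0.67 on the log2 scale. The median difference over the members was 0.10, with 24 positive and 18 negative values, and the median over all genes was -0.04. Over the 30 members above background throughout it was also 0.10, with 18 positive and 12 negative values. All genes above background throughout had a median of 0.016, with 53.2% positive.

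**Figure D1:**
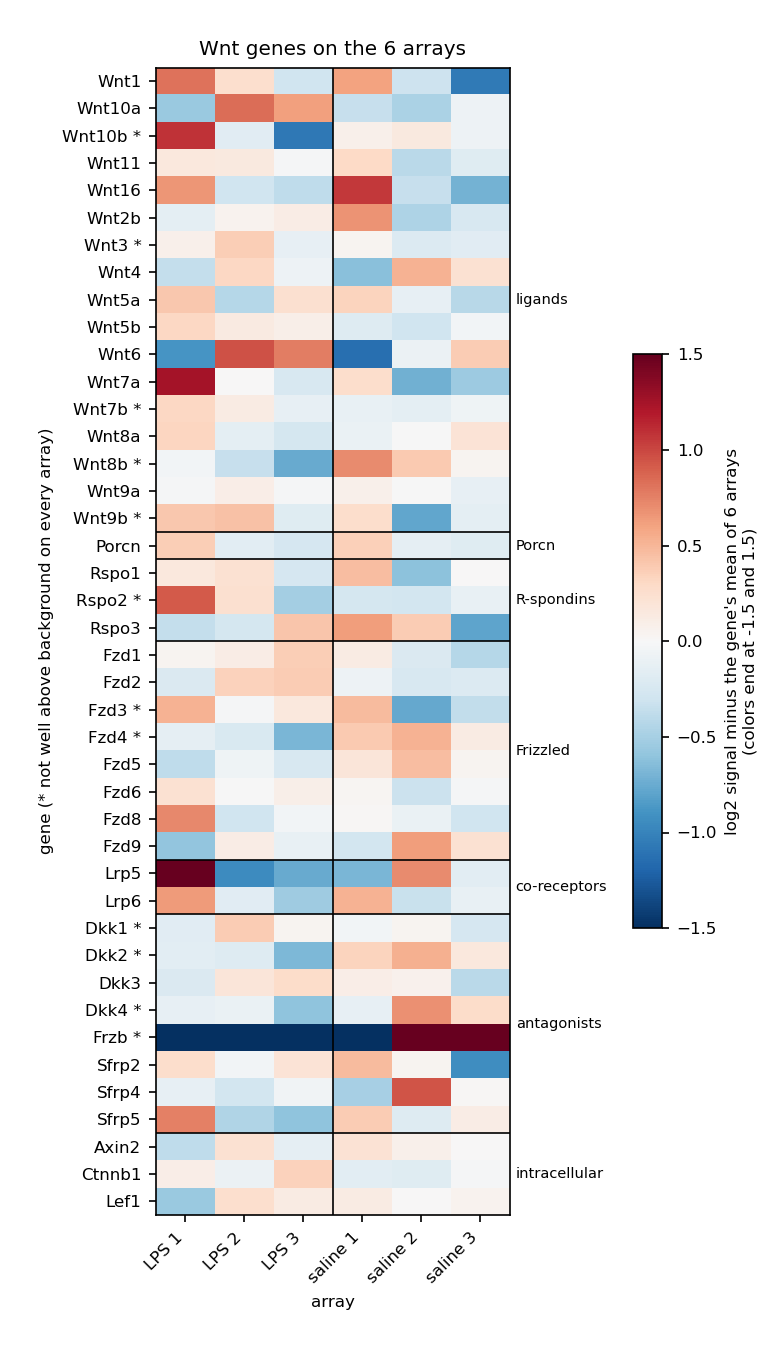
Log2 signal of the 42 Wnt genes (rows, grouped by role) on the 3 LPS and 3 saline arrays (columns), each gene centred on its mean of 6 arrays; red is above and blue below that mean, and an asterisk marks genes not well above background on every array. Frzb is high on saline 2 and saline 3 alone, while several ligands and the co-receptors are highest on LPS 1.

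The members varied within each treatment. Among the 30 members above background throughout, the median SD was 0.33 over the LPS arrays and 0.33 over the saline arrays, against 0.20 and 0.24 for all such genes. In 10 of these 30 members, 33.3%, both LPS 1 and saline 1 lay above the other arrays, and this held for 29.3% of all genes above background throughout. Among them were Wnt1, Wnt5a, Wnt7a, Wnt11, Wnt16, Lrp6 and Porcn, while Wnt4, Wnt6 and Fzd9 had both arrays below the other four. Groups did not overlap for 5 members, 11.9%, against 22.6% of all genes. Fzd5 and Wnt5b were above background on every array, which is 2 of 30 members against 11.1% of such genes. The other three, Wnt8b, Fzd4 and Dkk2, were above background on no array, a class in which groups did not overlap for 57.7% of genes, with the LPS arrays the lower ones in 57.0% of the class and the higher ones in 0.759%. With the arrays paired by replicate number, 8 members were higher with LPS in all 3 pairs, 19.0%, against 14.2% of all genes, and 5 were lower in all 3, 11.9%, against 26.1% of all genes. All genes include the 6586 above background on no array, in which the LPS arrays tended to be the lower ones. Shares by pair were not computed for genes above background throughout.

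**Figure D2:**
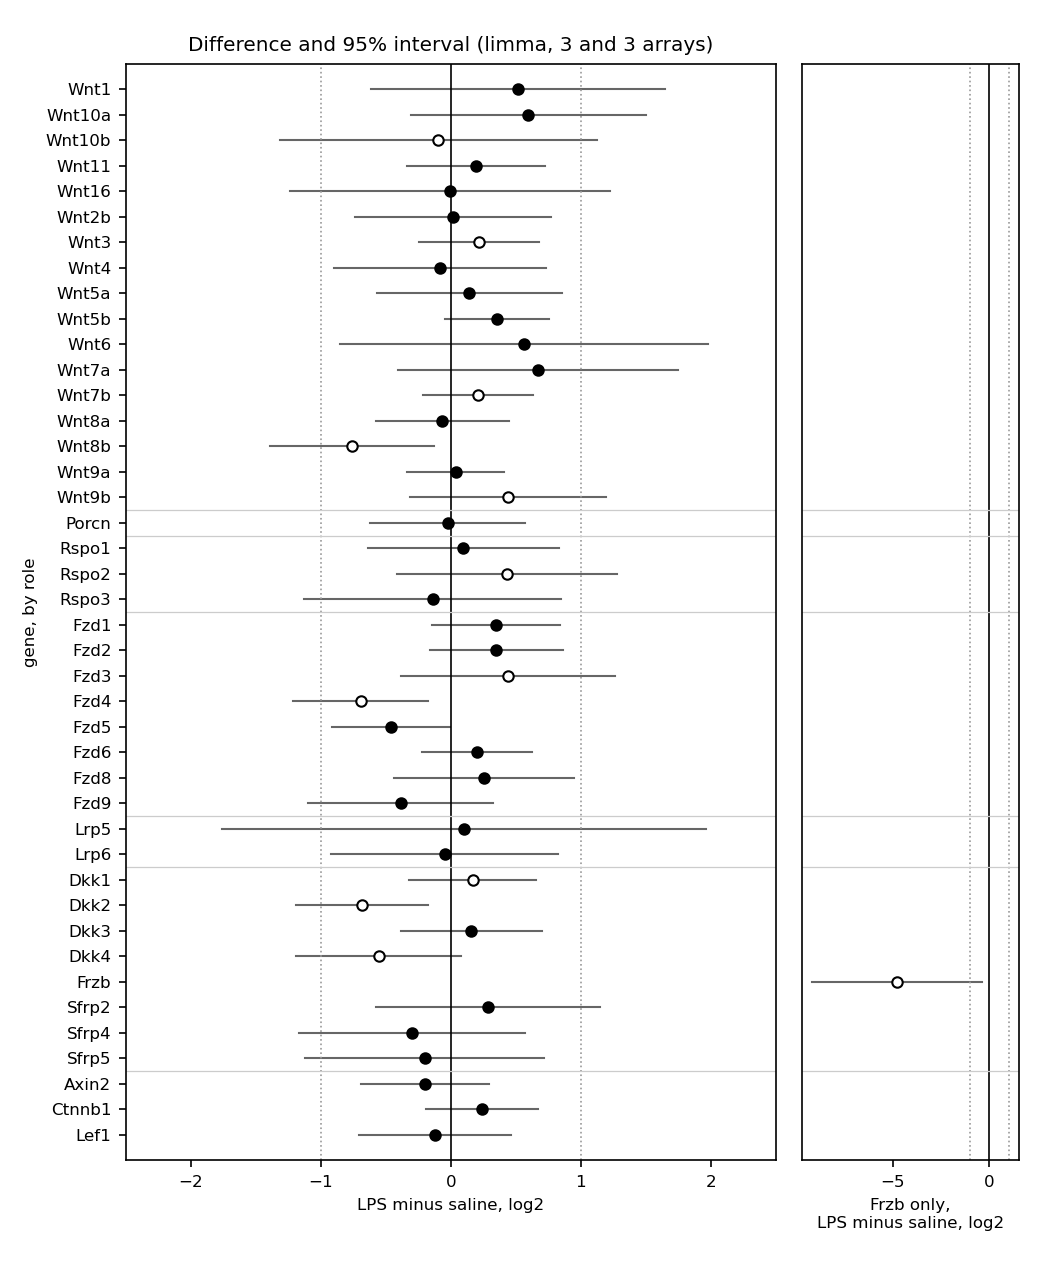
Difference between LPS and saline arrays (log2, horizontal axis) with its 95% interval from limma for each of the 42 genes, n = 3 arrays in each group; filled symbols mark genes well above background on each of the 6 arrays, and open symbols give no reliable size. Dotted lines mark 2-fold, Frzb has its own axis on the right, and of the filled symbols the interval of Fzd5 alone leaves out 0.

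None of the 17 ligands met the criterion. Wnt4, which with Rspo1 drives ovarian differentiation, was among the ligands measured on all arrays, at 1.00, 1.67 and 1.29 on LPS 1 to 3 and 0.74, 1.89 and 1.59 on saline 1 to 3. The ranges overlapped fully, and the lowest value of each group was on the array numbered 1. The difference was -0.09 with a 95% interval from -0.90 to 0.73 and an adjusted p of 0.98 (limma). Wnt7a, the Müllerian epithelial ligand, reached 0.39, -0.85 and -1.09 with LPS and -0.59, -1.58 and -1.40 with saline. It was higher with LPS in each numbered pair, while the groups overlapped. The difference was 0.67 (SE 0.45), with an unadjusted p of 0.18 and an adjusted p of 0.59 (limma). With the replicate number as a block these were 0.020 and 0.19, and the difference was 0.22 without LPS 1. The 2 arrays with the most Wnt7a in their groups, LPS 1 and saline 1, had the largest sums of oviduct and surface epithelium markers. They also had the largest sums of 3 Müllerian mesenchyme markers, 4.96 and 5.48. These sums were 3.91 and 4.05 on the other LPS arrays and 2.15 and 2.52 on the other saline arrays. In the mean log2 signal of the 3 markers, saline 1 at -1.83 lay below all LPS arrays, at -0.50, -1.57 and -1.67. The other saline arrays were at -2.91 and -2.81. Of these 3 markers, 2 had an unadjusted p under 0.05 (limma), against 15.7% of all genes. The part of such tissue in the Wnt7a difference was not tested.

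Wnt6, expressed in epithelia, followed the opposite order. Its values were -2.34, -0.50 and -0.69 with LPS and -2.59, -1.55 and -1.08 with saline. LPS 2 and LPS 3 lay above every saline array and LPS 1 lay below all but saline 1. The difference was 0.56 (SE 0.59, limma adjusted p = 0.80). Without LPS 1 it was 1.15 and met the criterion, but treatment and slide row cannot then be told apart. A fit with a term for slide row, which sets LPS 1 alone against the saline arrays, gave -0.60. Wnt10a, named here after its values were seen because it is the next gene to Wnt6 on chromosome 9, stood at -3.57, -2.17 and -2.40 with LPS and -3.35, -3.48 and -3.08 with saline. It too was highest on LPS 2 and LPS 3, and its lowest value was on LPS 1. Its difference was 0.59 (SE 0.38, limma adjusted p = 0.55), 1.02 and past the criterion without LPS 1, and -0.26 in a fit with a term for slide row. The summed signal of 4 ovarian stroma and theca markers was also highest on LPS 2 and LPS 3, at 8.40 and 7.99, against 4.75 to 4.97 on the other arrays. The oocyte sum was 46.9 and 38.3 there and 16.8 to 33.7 elsewhere, and the part of these tissues in the values was not tested.

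The starts of Wnt6 and Wnt10a lie 20042 bases apart on the same strand. The 250 bases before each are shown because both neighbours were highest on LPS 2 and LPS 3. Their profiles differed on saline 1, the lowest array for Wnt6 but within the range of the other saline arrays for Wnt10a. The pair was picked after its values were seen, and Wnt9b with Wnt3 and Wnt10b with Wnt1 were also measured neighbours. The windows are chr9:83778302-83778551 and chr9:83798344-83798593 of GRCr8, both on the plus strand, from RefSeq, which held such a sequence for 29 of the 42 members. GC content was 79.6% before Wnt6 and 61.2% before Wnt10a, and the median was 63.2% over the 29 members and 51.2% over all genes listed. No base is in capitals, since neither window held the Tcf/Lef motif described with Axin2.
Wnt6: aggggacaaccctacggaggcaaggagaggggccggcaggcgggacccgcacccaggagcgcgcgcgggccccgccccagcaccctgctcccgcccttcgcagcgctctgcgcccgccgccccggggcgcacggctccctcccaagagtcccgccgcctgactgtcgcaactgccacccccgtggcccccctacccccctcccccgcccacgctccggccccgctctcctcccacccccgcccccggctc
Wnt10a: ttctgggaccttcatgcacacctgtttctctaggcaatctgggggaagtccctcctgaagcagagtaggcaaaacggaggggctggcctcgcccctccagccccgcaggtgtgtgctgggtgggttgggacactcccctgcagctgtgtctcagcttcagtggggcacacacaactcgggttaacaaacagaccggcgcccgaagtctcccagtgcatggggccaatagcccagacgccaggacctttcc

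Among ligands above background, Wnt5b was the one whose groups did not overlap. Its signal was -1.29, -1.47 and -1.51 with LPS against -1.79, -1.90 and -1.64 with saline, so each LPS array exceeded each saline array. The difference was small, 0.35 (SE 0.17), or 1.28-fold, and its adjusted p was 0.35 by limma. An exact two-sided permutation test over 3 and 3 arrays gave 0.1, the smallest p that this design allows. Leaving out single arrays kept the difference between 0.29 and 0.42.

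The remaining ligands of known ovarian or genital tract expression gave no difference beyond the spread between arrays. Wnt5a, a ligand of the β-catenin-independent branches, read -2.55, -3.38 and -2.72 with LPS and -2.62, -3.08 and -3.36 with saline. Wnt2b gave -1.49, -1.29 and -1.23 against -0.67, -1.81 and -1.58, and its saline values enclosed the LPS values. Wnt9a was the steadiest ligand named, between -3.22 and -3.33 with LPS and between -3.23 and -3.44 with saline. Their differences were 0.14 (95% interval -0.57 to 0.85), 0.02 (-0.73 to 0.77) and 0.04 (-0.34 to 0.41). Wnt11, which acts on cell movement, had 2 probes, and the brighter gave -1.12, -1.13 and -1.29 with LPS and -0.97, -1.68 and -1.46 with saline. Saline 1 was the highest of the 6 arrays. The brighter probe differed by 0.19 (SE 0.22) and the dimmer by 0.64 (SE 0.34), with adjusted p-values of 0.83 and 0.43 by limma. Wnt9b exceeded background on each of the 3 LPS arrays but on no saline array. No direction is given for it, since the fitted difference of 0.44 (SE 0.32, limma adjusted p = 0.63) was -0.06 with normexp background correction and -0.32 on its second probe. Wnt8b and Wnt10b were above background on no array and have no fold change. Over the 12 ligands above background on all arrays the median difference was 0.17, with 9 positive values.

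**Figure D3:**
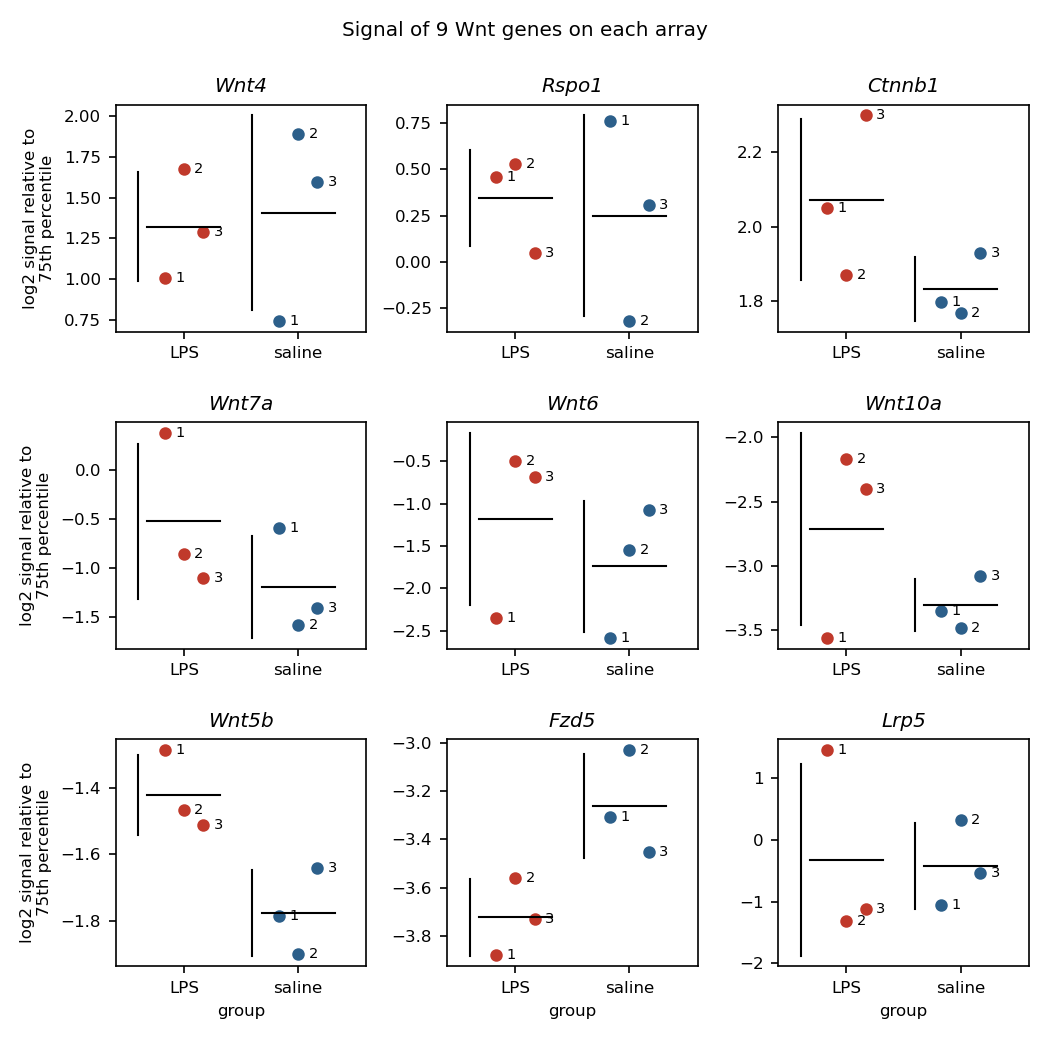
Log2 signal, with the array's 75th percentile set to 0, for 9 Wnt genes, with 1 point for each array, labelled by its replicate number, in the LPS (red) and saline (blue) groups; horizontal bars are means and vertical bars 1 SD, n = 3. Wnt5b and Fzd5 separate by group, Wnt6 and Wnt10a are low on LPS 1, and Lrp5 is high on LPS 1; the vertical axes differ between panels.

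Porcn and the R-spondins gave no difference beyond the spread between arrays. Porcn, needed for the secretion of active Wnt ligands, was 1.62, 1.09 and 1.00 with LPS and 1.61, 1.11 and 1.06 with saline, so same-numbered arrays were nearly level. The difference of -0.02 had a 95% interval from -0.62 to 0.57. Rspo1, the R-spondin of ovarian determination, was 0.46, 0.53 and 0.05 with LPS and 0.76, -0.32 and 0.31 with saline. The saline values enclosed those with LPS, and the difference was 0.10 (95% interval -0.64 to 0.83). Rspo2 was above background on LPS 1 alone, and Rspo3 was measured on every array with a difference of -0.14 (SE 0.41).

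Frizzled receptors gave the other member that separated by group above background. Fzd5 read -3.88, -3.56 and -3.73 with LPS and -3.31, -3.03 and -3.45 with saline, each LPS array lying below each saline array. The difference was -0.46 (SE 0.19), a 1.38-fold lower signal, with an unadjusted p of 0.047 and an adjusted p of 0.30 (limma), short of the 2-fold criterion. It stayed between -0.55 and -0.34 when single arrays were left out. Across the 20 alternative fits described below, it ran from -0.61 with the slide row as a block to -0.087 without scaling between arrays. It was -0.27 with normexp and -0.21 with no background correction. Fzd1 was 1.34, 1.40 and 1.66 with LPS and 1.42, 1.07 and 0.87 with saline. Only saline 1 reached into the LPS range, and the difference was 0.35 (SE 0.21, limma adjusted p = 0.51). Fzd4, a receptor of vascular and luteal tissue, was above background on no array, at -6.95, -7.05 and -7.50 against -6.42, -6.29 and -6.69, and no fold change is given. Of the 8 receptors, 6 were above background on all arrays, and the median difference over all 8 was 0.23.

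The co-receptors differed more within the LPS group than between the groups. Lrp6 was 1.88, 1.08 and 0.71 with LPS and 1.77, 0.91 and 1.13 with saline. Both arrays numbered 1 were highest, and the difference was -0.05 (95% interval -0.92 to 0.82). Its second probe gave -0.33 (SE 0.20, limma adjusted p = 0.52). Lrp5, named after its values were seen, was 1.46, -1.31 and -1.12 with LPS and -1.06, 0.33 and -0.54 with saline. LPS 1 was far above the other LPS arrays, and its SD of 1.55 in the LPS group exceeded the difference of 0.10. Without LPS 1 and saline 1, an alternative chosen after seeing the data, the difference was -1.12, and it was 1.89 in a fit with a term for slide row, which sets LPS 1 alone against the saline arrays. Each met the criterion and they had opposite signs.

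Among the secreted antagonists Frzb was the one call. Frzb, also called sFRP3, binds Wnt ligands and is best known from cartilage. Its values were -4.37, -5.40 and -4.77 with LPS and -4.75, 2.22 and 2.32 with saline. Saline 1 lay within the LPS range, and the whole difference came from saline 2 and saline 3, where the signal was at least 95.9 times that of the highest other array. Frzb was well above background on these and on LPS 1 and LPS 3. The fitted difference was -4.78 (SE 1.84, 95% interval -9.17 to -0.38), with an unadjusted p of 0.037 and an adjusted p of 0.29 (limma), and the exact permutation p was 0.2. With saline 2 and saline 3 left out it was -0.10. With the replicate number as a block its unadjusted p was 0.045.

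The same pair of saline arrays held the adrenal transcripts. Adrenal cortex markers were at 163 and 218 there and at most 1.55 elsewhere, and adrenal medulla markers at 79.9 and 52.4 there and at most 5.13 elsewhere. In the LPS arrays and saline 1, where these sums were low, Frzb lay between -5.40 and -4.37. The part of adrenal tissue in the Frzb difference was not tested. The 250 bases before the start of Frzb, at chr3:85772097-85772346 on the minus strand of GRCr8 (RefSeq), are shown because it was the one member called. They were 43.6% GC and contained no copy of the Tcf/Lef motif, so no base is in capitals.
Frzb: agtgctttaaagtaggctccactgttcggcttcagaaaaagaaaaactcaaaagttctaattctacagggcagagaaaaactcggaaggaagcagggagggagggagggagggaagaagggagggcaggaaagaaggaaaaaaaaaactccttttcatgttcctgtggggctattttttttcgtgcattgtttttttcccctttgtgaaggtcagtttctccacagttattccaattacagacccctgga

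**Figure D4:**
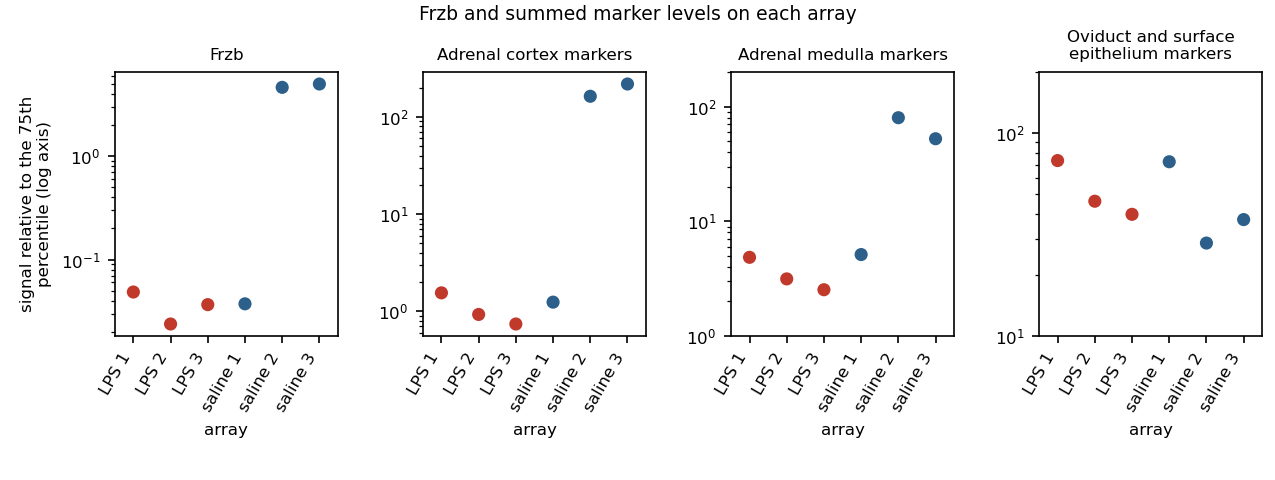
Signal relative to the 75th percentile of the array (log axes) for Frzb and for the sums of 6 adrenal cortex, 7 adrenal medulla and 8 oviduct and surface epithelium markers on each LPS (red) and saline (blue) array. Frzb and both adrenal sums are high on saline 2 and saline 3, and the epithelial sum is highest on LPS 1 and saline 1, at 73.2 and 72.2.

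Of the 4 antagonists above background on all arrays, none had a difference beyond the spread between arrays. Dkk3, an atypical member of the Dickkopf family, was 1.37, 1.77 and 1.86 with LPS and 1.69, 1.66 and 1.18 with saline, a difference of 0.16 (95% interval -0.38 to 0.70). Sfrp4, an antagonist found in the ovary, was -1.81, -1.97 and -1.75 with LPS and -2.20, -0.75 and -1.68 with saline. Saline 2 and saline 3 were again the highest arrays, and saline 1 the lowest. The difference was -0.30 (SE 0.36, limma adjusted p = 0.84), and 0.35 with saline 2 and saline 3 left out. Dkk1, the classical inhibitor of Lrp5 and Lrp6, was -5.13, -4.58 and -4.92 with LPS and -5.00, -4.92 and -5.21 with saline, above background on LPS 2 and LPS 3 and on no saline array. No direction is given for Dkk1, since the fitted difference of 0.17 (limma adjusted p = 0.85) was -0.11 with normexp and -0.21 as the mean over its probes. Dkk2 and Dkk4 were above background on no array, and the size of their differences cannot be read. The 4 antagonists measured on all arrays had a median difference of -0.02.

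The intracellular members read out or carry the signal, and none moved beyond its spread. β-catenin (Ctnnb1), the central effector and also a part of cell adhesion, was 2.05, 1.87 and 2.30 with LPS and 1.80, 1.77 and 1.93 with saline. It was higher with LPS in all 3 numbered pairs, LPS 2 lay below saline 3, and the difference was 0.24 (95% interval -0.19 to 0.67, limma adjusted p = 0.65). Axin2, a direct target whose product feeds back on β-catenin, was -3.54, -2.94 and -3.30 with LPS and -2.95, -3.09 and -3.15 with saline. LPS 2 was the highest array and LPS 1 the lowest, and the difference was -0.20 (95% interval -0.69 to 0.29). Lef1, a partner of β-catenin on DNA, was -2.44, -1.64 and -1.76 with LPS and -1.76, -1.88 and -1.83 with saline. LPS 1 was the one array outside a narrow range. The difference was -0.12 (95% interval -0.71 to 0.46), and the second probe of Lef1 gave 0.06 (SE 0.22).

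Because Axin2 and Dkk1 are established targets of the pathway, the 250 bases before their starts are shown, with copies of the Tcf/Lef motif in capitals. The motif was searched as CTTTG followed by 2 bases that are each A or T, on both strands, and each of these windows held 2 copies. They are chr10:94398535-94398784 on the plus strand and chr1:237798651-237798900 on the minus strand of GRCr8 (RefSeq). A match is a description of the letters and not a site. Among the 29 members listed 4 windows held a copy, 13.8%, against 14.9% of 33469 windows of the same length.
Axin2: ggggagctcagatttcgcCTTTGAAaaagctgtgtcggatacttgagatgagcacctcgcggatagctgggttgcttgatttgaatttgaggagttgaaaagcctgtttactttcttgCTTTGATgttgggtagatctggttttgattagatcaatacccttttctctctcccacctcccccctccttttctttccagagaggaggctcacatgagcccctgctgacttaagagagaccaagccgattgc
Dkk1: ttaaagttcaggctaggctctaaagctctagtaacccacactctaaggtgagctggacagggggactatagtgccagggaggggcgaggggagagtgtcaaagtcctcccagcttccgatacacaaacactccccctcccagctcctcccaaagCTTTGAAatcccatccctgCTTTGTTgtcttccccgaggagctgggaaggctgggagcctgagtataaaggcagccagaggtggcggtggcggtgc

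Other genes of the pathway gave no call either. Of 84 further genes listed for Wnt secretion, receptors, cytoplasmic and nuclear steps, targets and planar polarity, 65 had a probe and 55 were above background on all arrays. None met the criterion in either direction, where 0.517% of all genes were higher and 1.00% lower. An unadjusted p under 0.05 was found for 2, 3.08%, against 15.7% of all genes, none had an adjusted p under 0.05 (limma), and the median difference was 0.06. The receptor list had 1 of 7 genes at an unadjusted p under 0.05, Ryk, a receptor for β-catenin-independent ligands. Ryk was -1.29, -1.49 and -1.15 with LPS and -1.96, -1.69 and -1.73 with saline, so its groups did not overlap. The difference was 0.49 (SE 0.18, limma adjusted p = 0.28). The other was Tnks, of the cytoplasmic list, which was above background on no array. Groups did not overlap for 10 of the 65 genes, 15.4%, against 22.6% of all genes, and for 8 of the 55 above background throughout, 14.5%, against 11.1% of such genes. The 11 known targets measured had a median of -0.06 and none at an unadjusted p under 0.05. Among them Nr0b1, a nuclear receptor of adrenal and gonad named after its values were seen, was -2.41, -2.70 and -3.09 with LPS and -3.12, 1.27 and 0.75 with saline. Nr0b1, like Frzb, was high on saline 2 and saline 3 alone, and its difference of -2.37 (95% interval -4.99 to 0.25) had an adjusted p of 0.35 (limma).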

How the data were processed

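Total RNA of 6 neonatal rat ovary samples, 3 LPS and 3 saline, was measured on single-colour arrays, grouped by the treatment in the labels. The authors deposited, for each array, intensity values from Agilent Feature Extraction 10.5.1.1, whose processed signal has background subtracted and a surrogate value for dim spots. They also deposited a table of intensity values that equal the processed signal within 0.5%. Only lumi, without a version, is named in the submitters' processing notes.

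Outlier-flagged spots were removed and spots of a probe averaged. The log2 signal minus the 75th percentile of the array was fitted in limma 3.58.1 (R 4.3.3, lmFit and eBayes) over 30367 probes having at least 2 unflagged arrays in each group, with Benjamini-Hochberg adjustment over all of them. The fit was tested on simulated data. A probe counted as well above background where at least 50% of its spots carried that flag. Genes were named by RefSeq accession with a GRCr8 table, which gave 15154 symbols for 17998 probes. A further 12369 probes kept the name in the files.

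The members, marker lists and pathway lists were chosen with earlier results of these data known. Genes described array by array were those called, those above background whose groups did not overlap, and members with a textbook ovarian or genital tract role. Genes named outside this rule, except Rspo3 and Ryk, are marked in the text or named for being dim, second probes or counts. Ryk was given array by array after its values were seen, for its unadjusted p under 0.05 (limma). Same-numbered arrays deviated together from their group means (r = 0.296, 0.212 and 0.248), so the replicate number was used as a block in an alternative fit. For arrays with unlike numbers r ran from -0.266 to 0.155, and the sources used here state no pairing. Alternatives changed the background correction, scaling, probe choice, test, blocks and arrays included. Precision is limited by the number of arrays.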

Additional observations from a re-analysis of the deposited data

How the results depend on the processing

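Results were recomputed under 20 alternatives, of which leaving out LPS 1 and saline 1 together was chosen after seeing the data. The replicate block also rests on these data, since it was used because same-numbered arrays deviated together. Over the 21 members that met the selection rule above, the direction and the side of the criterion stayed the same in 346 recomputed values. The direction turned in 59, and a call was lost in 9 and gained in 3. Wnt10a, Lrp5, Ryk and Nr0b1 were also given array by array but are outside this tally. Ctnnb1, Frzb, Fzd1, Fzd4, Fzd5, Wnt5b and Wnt7a kept their direction under every alternative run. Fzd4 was above background on no array, a class in which every LPS array lay below every saline array for 57.0% of genes. Without saline 2 and saline 3 the differences of Frzb, Fzd1 and Wnt7a were only -0.10, 0.05 and 0.07. The cause of the changes below was not tested. Shares of all genes at the criterion, or with groups that did not overlap, are not given for the alternatives. The counts of members below therefore cannot be set against all genes. The slide row as a block sets LPS 1 alone against the saline arrays. Of the genes named below, Rspo2 was above background on LPS 1 alone and Wnt10b on no array. The replicate block changed no call at the criterion, and Frzb kept its call.

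No member was higher at the criterion, but 1 was without scaling between arrays (Wnt7a, 1.04), 4 were with the slide row as a block (Wnt7a, Lrp5, Rspo2 and Wnt10b), and 0 to 2 were when single arrays were left out, with 2 (Wnt6 and Wnt10a) without LPS 1. The 1 lower call, Frzb, became 0 under quantile normalization (Frzb at -4.78), analysis of variance, the test the study names (-4.78), the slide row as a block (-4.30) and the filter on dim probes (which removed Frzb), 0 to 1 when single arrays were left out, and 2 (Frzb at -7.35 and Lrp5) without LPS 1 and saline 1. Without saline 2 and saline 3 the 1 lower call was Wnt8b, not Frzb. The Frzb difference ran from -7.11 to -3.58 when single arrays were left out, and its call was lost without any of LPS 1, LPS 2, LPS 3, saline 2 or saline 3. The 0 calls among other pathway genes became 1 with normexp and with no background correction, 4 without scaling between arrays, 3 with the slide row as a block, 3 without LPS 1 and saline 1, and 0 to 4 when single arrays were left out, with 4 without saline 1 and 1 without LPS 1. The 5 members whose groups did not overlap became 3 with normexp, 3 with no background correction, 10 without scaling, 2 with the filter on dim probes, 15 without saline 2 and saline 3 and 26 without LPS 1 and saline 1, where fewer arrays separate more easily, and 5 to 17 when single arrays were left out, with 15 without LPS 1, 8 without LPS 2, 9 without LPS 3 and 17 without saline 1. The median difference of 0.10 became -0.038 with no background correction, 0.47 without scaling, where the median of all genes was 0.33, 0.21 with the slide row as a block and -0.079 without saline 2 and saline 3.

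Directions turned with no background correction for Dkk1 (-0.10), Lrp6 (0.0081), Porcn (0.083), Wnt2b (-0.00062), Wnt5a (-0.021) and Wnt9a (-0.11), and with normexp for Dkk1 (-0.11), Porcn (0.077), Wnt5a (-0.0052) and Wnt9a (-0.14). They turned without scaling for Axin2 (0.18), Lef1 (0.25), Lrp6 (0.32), Porcn (0.35), Sfrp4 (0.070) and Wnt4 (0.29), and with quantile normalization for Dkk1 (-0.072), Porcn (0.022), Wnt2b (-0.037) and Wnt9a (-0.025). The mean over probes turned Dkk1 (-0.21). The slide row as a block turned Dkk1 (-0.083), Dkk3 (-0.14), Lrp6 (0.61), Porcn (0.36), Wnt2b (-0.14), Wnt6 (-0.60) and Wnt9a (-0.0020). Without saline 2 and saline 3, Dkk3 (-0.020), Rspo1 (-0.42), Sfrp4 (0.35), Wnt11 (-0.21), Wnt2b (-0.67), Wnt4 (0.58), Wnt5a (-0.26) and Wnt9a (-0.060) turned, and without LPS 1 and saline 1, Axin2 (0.0032) and Lef1 (0.16). Leaving out single arrays gave ranges that crossed 0 for Dkk3 (-0.0049 to 0.31), Lef1 (-0.28 to 0.13), Lrp6 (-0.38 to 0.21), Porcn (-0.22 to 0.15), Rspo1 (-0.19 to 0.35), Sfrp4 (-0.63 to 0.093), Wnt2b (-0.21 to 0.36), Wnt4 (-0.42 to 0.15), Wnt5a (-0.030 to 0.39) and Wnt9a (-0.018 to 0.084). Members above background on no array have no measurable fold change on these arrays.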
